A study of Mus musculus with 9 samples.

Results

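The complement system is a cascade of blood and tissue proteins that marks surfaces for clearance and lysis. The genes described here encode 9 of its components, C1qa, C1qb, C1qc, C1s1, C3, C4b, Hc, Cfb and Cfi, which were taken by symbol from both deposited count tables, 9 of the 52160 symbols analysed. They were read in 9 kidney libraries of C57Bl/6N mice at 16 weeks of age, 3 from each of 3 genotypes. WT is wild type, ΔPod carries the allele labelled YBX1ΔPod, a Ybx1 deletion named for the podocytes, the filtering epithelium of the glomerulus, and K2A carries Ybx1 with K299A and K302A in exon 7, the lysines that acetylation-dependent secretion of Ybx1 needs; the design text also writes it Ybx1PodK2A. Ybx1 is a cold shock protein that binds RNA and DNA, and the series title asks about signals between glomerulus and tubule. RNA came from renal tissue with all its cell types, so fewer cells of a type and less RNA per cell cannot be told apart. The labels used here name no Cre driver, sex, batch or animal number, and p-values therefore measure the spread between libraries, which may be technical.

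C1q, built from the chains of C1qa, C1qb and C1qc, recognises antibody, dying cells and other surfaces, and in most tissues it is made by macrophages. The proteases C1r and C1s then cut C4 and C2, whose fragments form the classical pathway's C3 convertase. Cleaved C3 joins factor B (Cfb) in the alternative pathway, which amplifies the deposit on the surface. Factor I (Cfi) cuts the active fragments of C3 and C4 and so holds the cascade down, while Hc encodes C5, the start of the lytic terminal pathway. Kidney tubule cells are known to make C3, C4 and factor B themselves.

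Cfb, the factor B gene, was lower in every ΔPod and K2A library than in every WT library (180.3 ± 27.5 CPM in ΔPod and 154.3 ± 13.8 CPM in K2A against 328.6 ± 44.6 CPM in WT; SD, n = 3). C1s1 was 22.7 ± 4.27 CPM in ΔPod, above all WT libraries (13.5 ± 0.770 CPM), and 10.8 ± 1.12 CPM in K2A, below them (SD, n = 3). The C1q genes, C3, C4b and Cfi overlapped between genotypes, and Hc was at the limit of detection. Under edgeR's quasi-likelihood test with Benjamini-Hochberg adjustment over 18067 genes, 0 of the 8 members that could be tested passed an adjusted p of 0.05 in ΔPod against WT, in K2A against WT or in K2A against ΔPod. Among all tested genes 178 passed in ΔPod against WT (0.985%), 153 in K2A against WT (0.847%) and 0 in K2A against ΔPod (0.0%). At an unadjusted p under 0.05, 2 members passed in ΔPod against WT (C1s1 and Cfb, with 13.8% of all genes), 2 in K2A against WT (C4b and Cfb, with 10.6%) and 1 in K2A against ΔPod (C1s1, with 2.01%). DESeq2 called 2, 1 and 1 members in these comparisons, where it called 5.57%, 5.07% and 0.106% of all genes. The median log2 fold change of the 8 members was 0.51 in ΔPod and 0.30 in K2A against WT, beside 0.08 and 0.09 over all tested genes.

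In 4 libraries (WT 1, WT 3, ΔPod 3 and K2A 3) genes with long transcripts had relatively high counts, and in the other 5 genes with short transcripts did. These are called long-class and short-class libraries here, after the sign of the slope of centred log2 CPM (counts scaled to library size with TMM factors) on log2 exon length. The class was computed from the data and is no label of the study. The first principal component, which followed it, held 71.5% of the variance. Ribosomal protein genes took 0.999% to 1.17% of the counts in the long class and 2.44% to 7.86% in the short class. With this class as a term in the fit 0, 3 and 0 members passed in ΔPod against WT, K2A against WT and K2A against ΔPod, beside 3.96%, 4.09% and 0.0% of all genes. The median of the members against WT was then 0.28 in ΔPod and -0.02 in K2A, beside 0.04 and -0.01 over all genes. With the slope itself as a covariate 2, 3 and 1 passed (14.1%, 15.8% and 0.177% of all genes), in the long-class libraries alone 2, 7 and 6 (22.8%, 31.0% and 9.2%), and in limma-voom with sample weights 6, 6 and 1 (78.9%, 78.9% and 28.0%). Library totals ran from 30776806 to 46852490 counts. Xist was 0 in the WT libraries and present in all the others, at up to 330.9 CPM, while Ddx3y was 32.7 to 40.6 CPM in WT and at most 0.248 CPM in the others, so sex pattern and genotype cannot be told apart in any comparison with WT. The fat cell gene Adipoq was above 1 CPM in ΔPod 1, K2A 1 and K2A 2 (15.0 to 58.5 CPM). Ybx1 itself was 1190, 1585 and 1185 CPM in WT, 1167, 880.8 and 604.6 CPM in ΔPod and 1078, 1152 and 554.1 CPM in K2A. All mutant libraries lay below all WT libraries for Ybx1, as for 5.86% of all tested genes. Ybx1 passed in neither comparison with WT (adjusted p = 0.465 and 0.725, edgeR), and a whole-kidney count checks neither allele. Proximal tubule markers summed to 19133 to 22549 CPM in the long-class and 5759.8 to 12355 CPM in the short-class libraries.

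**Figure D1:**
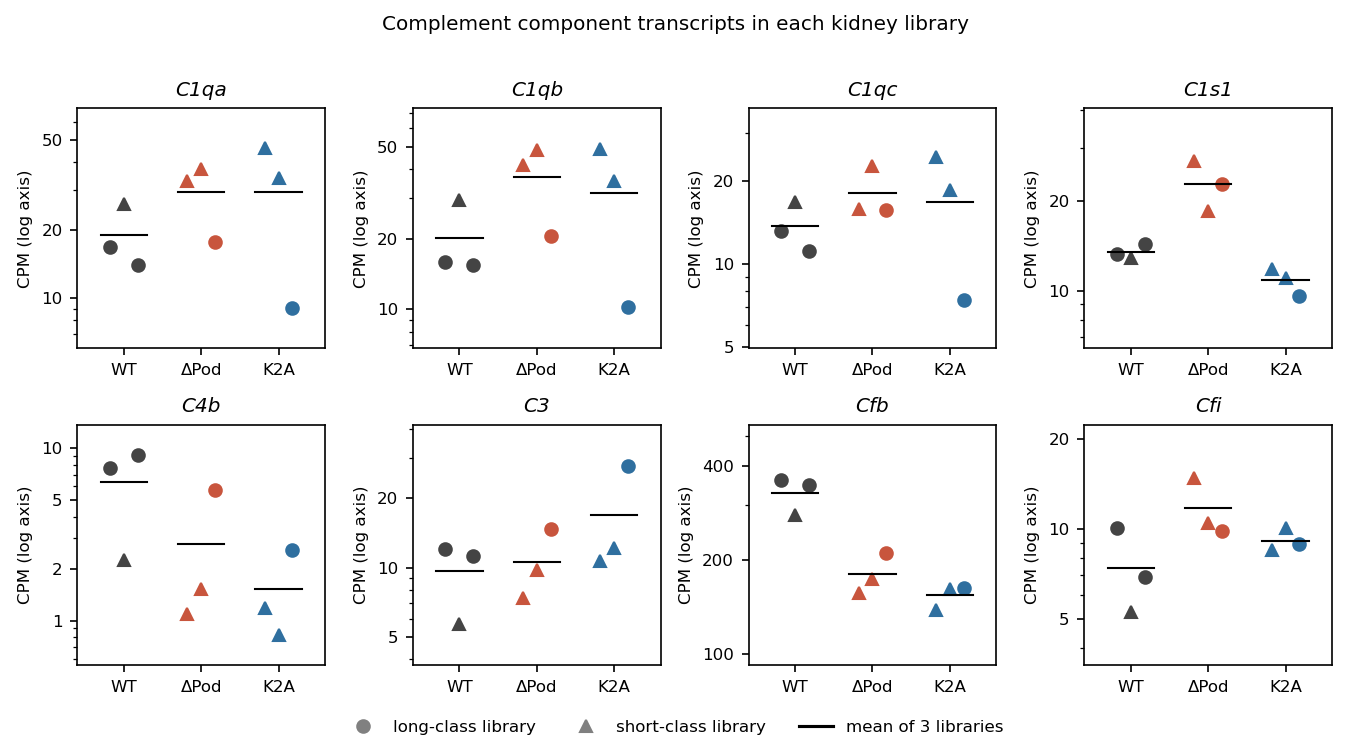
Level of each tested member in CPM on a log axis, by genotype, with 1 point per library, circles for long-class and triangles for short-class libraries, and a line at the mean of 3 libraries. In each genotype the circles of C1qa and C1qb lie below the triangles and those of C4b above them, and all WT points of Cfb (277.6 to 360.5 CPM) lie above all other points.

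The C1q genes lie next to one another on chromosome 4 of mm10 (C1qb at 136880129-136886187, C1qc at 136889804-136893065 and C1qa at 136895917-136898803, all in the GENCODE vM21 annotation). Because they are neighbours, bases before the start of C1qb and of C1qc are shown, 250 and 99 of them. These bases come from RefSeq with the build GRCm38.p6 and run 5′ to 3′ on the minus strand that both genes use. The RefSeq start of C1qc lies inside the GENCODE gene, and only the bases outside that gene are shown. Capitals mark the letters ACTTCCT, the reverse complement of AGGAAGT, the core bound by the ETS family of factors. C1qb: chr4:136886201-136886450. C1qc: chr4:136893066-136893164.
C1qb: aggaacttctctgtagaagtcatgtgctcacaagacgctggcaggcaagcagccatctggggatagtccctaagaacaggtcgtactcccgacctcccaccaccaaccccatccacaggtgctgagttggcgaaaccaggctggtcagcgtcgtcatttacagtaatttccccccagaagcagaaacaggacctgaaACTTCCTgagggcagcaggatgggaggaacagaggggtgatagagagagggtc
C1qc: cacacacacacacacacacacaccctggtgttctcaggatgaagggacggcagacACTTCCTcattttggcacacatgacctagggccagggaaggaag
The match stands 53 to 47 bases before the RefSeq start in C1qb and 195 to 189 bases before it in C1qc. On either strand AGGAAGT was found in 7.70% of 32536 mouse promoters of 250 bases, and the motif was chosen after the sequences had been read. Of the 9 members, 5 had an entry in the promoter table used; C1qa, C4b, Cfb and Cfi did not.

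C1qa and C1qb were highest in short-class mutant libraries, and C1qa, C1qb and C1qc were lowest in K2A 3, a long-class library. C1qa measured 16.7, 26.0 and 14.0 CPM in WT 1 to 3, 33.0, 37.1 and 17.8 CPM in ΔPod and 45.7, 33.8 and 9.03 CPM in K2A. C1qb measured 15.9, 29.3 and 15.5 CPM in WT, 41.8, 48.3 and 20.6 CPM in ΔPod and 48.6, 35.7 and 10.2 CPM in K2A. C1qc, which encodes the third chain, measured 13.2, 16.8 and 11.1 CPM in WT, 15.8, 22.7 and 15.6 CPM in ΔPod and 24.5, 18.5 and 7.41 CPM in K2A. In each genotype the long-class libraries were the lowest for C1qa, C1qb and C1qc, K2A 3 lay below every WT library, and the genotypes overlapped. The log2 fold changes of ΔPod against WT were 0.63 (SE 0.57, adjusted p = 0.579) for C1qa, 0.87 (SE 0.58, adjusted p = 0.475) for C1qb and 0.40 (SE 0.43, adjusted p = 0.642) for C1qc in edgeR. Those of K2A against WT were 0.64, 0.64 and 0.29, with adjusted p of 0.763, 0.768 and 0.831. With the length class as a term in the fit, ΔPod against WT gave 0.18, 0.39 and 0.17, and K2A against WT gave 0.02, 0.02 and -0.05, so the K2A difference of C1qc changed sign. In the long-class libraries alone, K2A against WT was -0.75, -0.61 and -0.70 (adjusted p = 0.010, 0.016 and 0.016 in edgeR), opposite to the values over all libraries, with 1 K2A library and 1 residual degree of freedom.

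C1qa and C1qb kept to a narrow ratio while the C1q sum varied. C1qb stood to C1qa at 0.949 to 1.302 over the 9 libraries, and C1qc to C1qa at 0.481 to 0.880. The summed CPM of C1q was 45.9, 72.1 and 40.6 in WT, 90.6, 108.1 and 54.0 in ΔPod and 118.7, 87.9 and 26.6 in K2A. C1qa and C1qb were 1.31 and 1.40 lower, on the log2 scale, in long-class than in short-class libraries, and C1qc was 0.76 lower. Their merged exon lengths were 1040, 1088 and 1931 bases, the shortest among the 8 tested members. The ratio of C1qb to C1qc, per kilobase, was 2.13 to 2.48 in the long class and 3.10 to 4.68 in the short class.

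Of the 15 genes on the macrophage list 14 could be tested, and 0 passed in any comparison. In 5 of the 14 every short-class library lay above every long-class library, in 2 every long-class library lay above, and in 7 the classes overlapped, beside 26.5% and 26.6% of all tested genes in the first 2 cases. Their summed level was 151.6 to 170.3 CPM in WT, 159.8 to 306.1 CPM in ΔPod and 114.3 to 236.3 CPM in K2A. The macrophage surface receptor Adgre1 (F4/80) measured 6.15, 6.01 and 4.62 CPM in WT, 4.77, 9.92 and 5.99 CPM in ΔPod and 6.45, 5.25 and 2.90 CPM in K2A, and its genotypes overlapped. Lyz2 and Csf1r were picked after their values were seen, as 1 example of each order. Lyz2, the macrophage lysozyme, was 6.92 to 21.6 CPM in long-class and 41.6 to 187.9 CPM in short-class libraries. Csf1r, the receptor for the macrophage growth factor, ran the other way, with 55.8 to 66.6 CPM in long-class and 3.87 to 35.8 CPM in short-class libraries. The exons of Lyz2 span 1316 bases and those of Csf1r 5774 bases. The part of transcript length, or of macrophage number, in the C1q values was not tested.

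**Figure D2:**
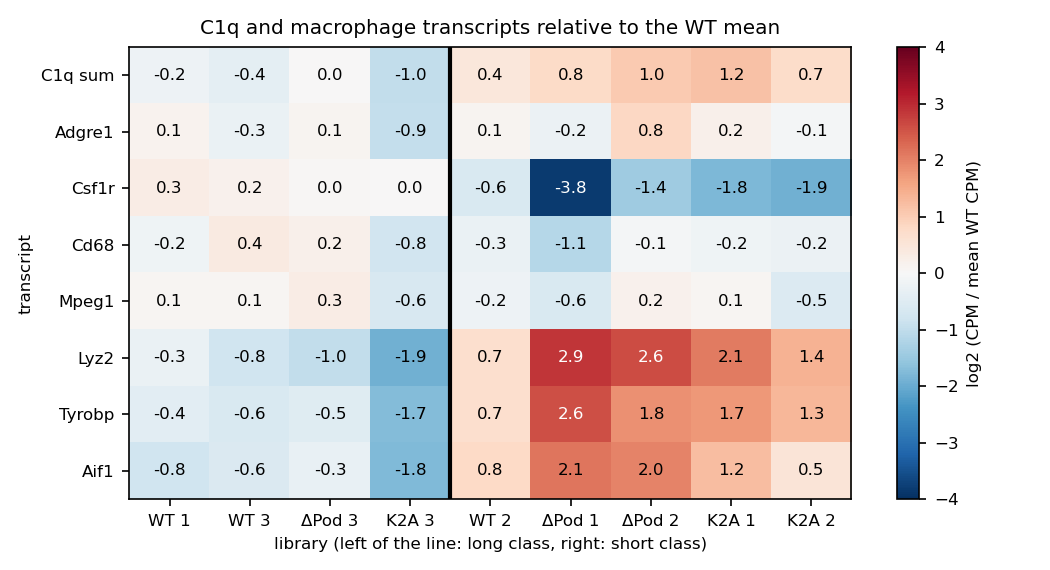
The summed C1q level and 7 macrophage transcripts in each library, as log2 of CPM over the mean of the 3 WT libraries, with long-class libraries left of the line and short-class libraries right of it. Lyz2, Tyrobp and Aif1 are red on the right and Csf1r is blue there, and C1q lies between 0.4 and 1.2 on the right and between -1.0 and 0.0 on the left.

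C1s1 encodes the serine protease C1s, which C1r activates once C1q has bound (chr6:124530345-124542359). It measured 13.3, 12.8 and 14.3 CPM in WT, 27.1, 18.5 and 22.7 CPM in ΔPod and 11.8, 11.1 and 9.63 CPM in K2A. All ΔPod libraries lay above all WT libraries and all K2A libraries below them, and the long-class library ΔPod 3 stood between the short-class ΔPod libraries. Groups that did not overlap in these directions were found for 8.73% (ΔPod higher than WT), 9.18% (K2A lower than WT) and 1.61% (K2A lower than ΔPod) of all tested genes. Genotypes on opposite sides of WT, as for C1s1, were found for 19 genes, 0.105% of those tested. The log2 fold change was 0.75 (SE 0.25, adjusted p = 0.275) in ΔPod against WT, -0.32 (SE 0.25, adjusted p = 0.744) in K2A against WT and -1.07 (SE 0.25, unadjusted p = 0.0025, adjusted p = 1) in K2A against ΔPod, all in edgeR. DESeq2 called the first (0.76, adjusted p = 0.030) and the last (-1.14, adjusted p = 0.0043). C1s1 shares 39.0% of its 50-base words with other genes, chiefly its copy C1s2, which was at 0.181 to 0.484 CPM, and with the antisense gene Gm16567, which was at no more than 0.0296 CPM. C1ra, the partner protease, measured 10.3, 7.73 and 10.2 CPM in WT, 5.50, 8.37 and 15.2 CPM in ΔPod and 6.88, 6.58 and 8.45 CPM in K2A, with overlapping genotypes and a log2 fold change of 0.05 in ΔPod against WT.

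C4b encodes complement C4, the substrate of C1s (chr17:34728380-34743882, minus strand). Its neighbour C4a encodes the sex-limited protein Slp, a close copy known to be expressed under androgen control in some strains. A window of 60 coding bases of C4b (bases 2705 to 2764 of its coding sequence, chr17:34735430-34735489) is set against the C4a transcript, with the 13 differing bases in capitals. It was chosen as the window of this length without gaps that differs most, so every other such window has as many differing bases or fewer.
C4b: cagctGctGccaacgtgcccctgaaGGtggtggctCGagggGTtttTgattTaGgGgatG
C4a: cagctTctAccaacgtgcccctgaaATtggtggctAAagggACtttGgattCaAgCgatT
The coding sequence of C4b was identical to the C4a transcript at 96.0% of aligned positions, and 35.2% of the 50-base words of C4b also occur in C4a, so part of the counts of either gene may belong to the other.

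C4b measured 7.71, 2.23 and 9.09 CPM in WT, 1.09, 1.52 and 5.74 CPM in ΔPod and 1.18, 0.830 and 2.57 CPM in K2A. The long-class library was the highest in ΔPod and in K2A, WT 2 was the lowest of WT, and the groups overlapped. Within the long class and within the short class, however, each mutant library lay below each WT library, a pattern of 13.4% of all tested genes. The log2 fold change was -1.18 (SE 0.77, adjusted p = 0.463) in ΔPod and -2.05 (SE 0.79, adjusted p = 0.379) in K2A against WT in edgeR. With the class term K2A against WT was -1.38 (SE 0.30, adjusted p = 0.035) and passed, as did 4.09% of all genes in that fit, and ΔPod against WT was -0.71 (adjusted p = 0.204). C4a was low throughout, at 22, 28 and 38 counts in WT, 5, 13 and 18 in ΔPod and 8, 8 and 8 in K2A, or 0.610 to 0.939 CPM in WT and 0.181 to 0.363 CPM in the mutants. All mutant libraries were below all WT libraries for C4a, as for 5.86% of all tested genes. Its log2 fold changes were -1.44 (adjusted p = 0.183) and -1.78 (adjusted p = 0.106, edgeR). The ratio of C4b to C4a counts was 2.79 to 15.8, highest in the long-class libraries. C2, which joins C4 in the convertase, showed class but no genotype separation, with 28.4, 14.3 and 28.0 CPM in WT, 12.3, 17.3 and 34.5 CPM in ΔPod and 13.0, 16.1 and 34.4 CPM in K2A.

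C3, the central component (chr17:57203970-57228136, minus strand), measured 12.0, 5.67 and 11.2 CPM in WT, 7.38, 9.75 and 14.7 CPM in ΔPod and 10.7, 12.2 and 27.7 CPM in K2A. K2A 3 was the highest library and WT 2 the lowest, and the genotypes overlapped. Within both classes every mutant library lay above every WT library, as for 11.4% of all tested genes. The log2 fold change was 0.14 (SE 0.48, adjusted p = 0.881) in ΔPod and 0.81 (SE 0.48, adjusted p = 0.641) in K2A against WT in edgeR. With the class term it was 0.52 (adjusted p = 0.224) and 1.098 (SE 0.21, adjusted p = 0.023), so K2A against WT passed there. Without ΔPod 3 the ΔPod value was -0.20, and without K2A 3 the K2A value was 0.20. The 250 bases before the C3 start (chr17:57228137-57228386, RefSeq, GRCm38.p6) hold TTGCGAAA in capitals, a match to the C/EBP motif TTGCNNAA 45 to 38 bases before the start, and are shown because C3 alone of the 8 tested members lay above WT in both classes.
C3: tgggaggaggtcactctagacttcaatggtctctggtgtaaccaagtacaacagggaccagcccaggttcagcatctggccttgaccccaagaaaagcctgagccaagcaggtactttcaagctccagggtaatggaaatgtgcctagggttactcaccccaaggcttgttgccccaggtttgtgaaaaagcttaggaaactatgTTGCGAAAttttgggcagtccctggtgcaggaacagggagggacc
TTGCNNAA, on either strand, was found in 9.57% of the promoters, also in 1 of the 2 C1s1 entries. The interferon-stimulated response element was found in 2.98% of promoters and in none of the members' entries.

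Cfb, factor B of the alternative pathway's convertase, was the most abundant member per length and the only one below WT in every mutant library (chr17:34856374-34862518, minus strand). It measured 360.5, 277.6 and 347.7 CPM in WT, 156.3, 174.3 and 210.4 CPM in ΔPod and 138.4, 161.5 and 163.0 CPM in K2A. The highest mutant library was ΔPod 3 and lay below WT 2, the lowest WT library. ΔPod lay below WT without overlap for 9.47% of all tested genes, and both genotypes did for 5.86%. The log2 fold change was -0.87 (SE 0.25, adjusted p = 0.211) in ΔPod and -1.09 (SE 0.25, adjusted p = 0.108) in K2A against WT in edgeR, or 0.549 and 0.470 of the WT level. Neither passed there. DESeq2 called both, at -0.86 (adjusted p = 0.0043) and -1.15 (adjusted p = 2.6e-05), and the class-term fit called K2A against WT at -0.99 (adjusted p = 0.022) and left ΔPod against WT at -0.77 (adjusted p = 0.055). K2A against ΔPod was -0.22, with an interval of -0.72 to 0.27 at 2 SE. With 4322 to 14070 counts per library, counting error was small for Cfb. Because WT libraries alone had the male pattern of sex-linked genes, genotype and sex cannot be told apart for Cfb, C4b, C4a or C3.

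The annotation places the protein-coding gene Gm20547 over Cfb on the same strand, where it shares 79.5% of the exon bases of Cfb. Gm20547 counts were close to those of Cfb in each library, with a Cfb to Gm20547 ratio of 0.911 to 1.06. How reads over overlapping genes were counted is not given in the sources used here, and the Cfb level may therefore be a part of, or may include, reads that fit Gm20547 as well. The log2 fold change of Gm20547 was -0.84 in ΔPod and -1.03 in K2A against WT (adjusted p = 0.261 and 0.169, edgeR). C2 lies next to Cfb at chr17:34862604-34898265, and the ratio of Cfb to C2 was 12.4 to 19.5 in WT, 6.09 to 12.7 in ΔPod and 4.74 to 10.6 in K2A.

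Cfi, the protease that inactivates C3b and C4b (chr3:129835884-129875332), measured 10.1, 5.27 and 6.92 CPM in WT, 14.9, 10.5 and 9.85 CPM in ΔPod and 8.49, 10.1 and 8.88 CPM in K2A. ΔPod 3 lay within the WT range and the other 2 ΔPod libraries above it, and K2A lay within it or at its top. The log2 fold change was 0.66 (SE 0.32, adjusted p = 0.388) in ΔPod and 0.30 (SE 0.32, adjusted p = 0.791) in K2A against WT in edgeR. Pooled over genotypes, Cfi differed between classes by -0.08 on the log2 scale, long minus short. By genotype the long class was higher in WT (10.1 and 6.92 against 5.27 CPM) and lower in ΔPod (9.85 against 14.9 and 10.5 CPM). In K2A it lay between the short-class libraries. ΔPod against WT was 0.23 in the long class alone, with 1 ΔPod library, and 1.22 in the short class alone, with 1 WT library. Hc, the gene of C5 (chr2:34983331-35061438), had 0, 0 and 1 counts in WT, 0, 1 and 0 in ΔPod and 0, 1 and 1 in K2A. It was below the filter and was not tested, and 3 counts over a group would correspond to 0.0250 to 0.0279 CPM, so its transcript was at or under the level that could be detected.

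**Figure D3:**
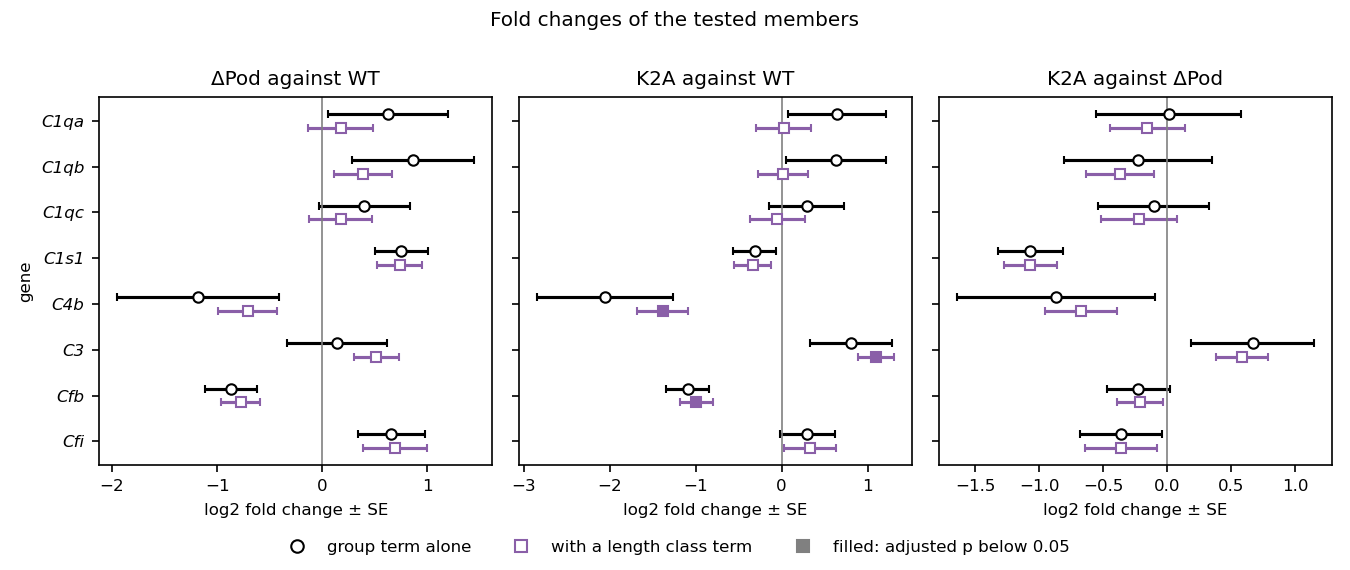
Log2 fold changes with their standard errors for the 8 tested members in 3 comparisons, from edgeR with the genotype term alone (circles) and with the length class added (squares), filled where the adjusted p is below 0.05. The filled symbols are C4b, C3 and Cfb in K2A against WT with the class term, at -1.38, 1.098 and -0.99.

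Levels can be compared between genes only per length. In CPM per kilobase of merged exons, WT kidneys held 116.3 ± 15.8 of Cfb (SD, n = 3), 18.6 ± 7.24 of C1qb, 18.2 ± 6.07 of C1qa, 7.10 ± 1.48 of C1qc, 4.31 ± 0.246 of C1s1, 3.35 ± 1.11 of Cfi, 1.87 ± 0.672 of C3, 1.11 ± 0.637 of C4b and 0.00131 of Hc. The neighbours C1qb and C1qa, C1s1 and Cfi, and C3 and C4b overlapped between libraries, the other neighbours did not, and Cfb stood above all others and Hc below all. The order was the same in ΔPod, where Cfb was 63.8 ± 9.75 and C1qb 33.9 ± 13.3 (SD, n = 3). In K2A Cfi (4.12 ± 0.372) came before C1s1 (3.47 ± 0.358; SD, n = 3). Because the class moves genes with exon length, this order carries the class as well as the abundance.

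The wider pathway was read from 6 lists holding 58 complement genes, members included, of which 44 could be tested, and 0 of 44 passed in any of the comparisons in edgeR. At an unadjusted p under 0.05 there were 10 in ΔPod against WT, 7 in K2A against WT and 3 in K2A against ΔPod, beside 13.8%, 10.6% and 2.01% of all genes. DESeq2 called 6, 4 and 1 of them, beside 5.57%, 5.07% and 0.106% of all genes. Medians over the 44 genes were 0.15, -0.15 and -0.17 on the log2 scale, beside 0.08, 0.09 and -0.01 over all genes. Among 16 tested genes of the classical and lectin pathway the median was 0.28 in ΔPod and -0.20 in K2A against WT. Of them, 3 lay above and 2 below all WT libraries in ΔPod, beside 8.73% and 9.47% of all genes. In K2A, 0 lay above and 4 below, the latter beside 9.18%. The share of all genes above WT in K2A is not given here, so the sides cannot be set against each other. Masp2, a lectin pathway protease, was below WT in all mutant libraries (1.29 to 2.47 CPM in WT and 0.302 to 0.985 CPM in the mutants), as were 5.86% of all genes. The median of 7 tested receptors was -0.44 in ΔPod and -0.34 in K2A against WT, and it was -0.06 and -0.09 with the length slope as a covariate. Against WT the 4 tested terminal pathway genes had medians of -0.99 and -0.80, and the 4 of the alternative pathway 0.58 and 1.07, beside 0.08 and 0.09 over all genes. The genes behind these medians differed in direction. In each comparison 1 of the 4 terminal genes had a positive value. In the alternative pathway 3 of the 4 did, while Cfb was negative (-0.87 and -1.09). The anaphylatoxin receptors were low, with C3ar1 at 0.543 to 1.97 CPM and C5ar1 at 0.145 to 1.03 CPM over the 9 libraries.

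Regulators hold the cascade down in plasma and on cell surfaces. The median of 7 tested membrane regulators was 1.21 in ΔPod and 1.07 in K2A against WT, beside 0.08 and 0.09 over all genes. With the length slope as a covariate it was 0.04 and 0.32. For 6 tested fluid-phase regulators the median was 0.61 and 0.19, and 0.38 and 0.07 with the slope. Serping1, the C1 inhibitor, measured 39.7 to 43.7 CPM in WT, 44.0 to 50.6 CPM in ΔPod and 29.8 to 51.8 CPM in K2A. Its ΔPod libraries lay above the WT libraries, as for 8.73% of all tested genes, and its K2A libraries on both sides of them. The membrane regulator Cd55 was 8.20 to 20.6 CPM over all libraries, and Cr1l (Crry) was 53.6 to 61.8 CPM in WT, 47.0 to 105.1 CPM in ΔPod and 44.1 to 73.0 CPM in K2A.

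In the alternative pathway, Cfd encodes adipsin, a protease that fat cells release and that cuts factor B. It was 0.0554, 0.0573 and 0.148 CPM in WT, 82.2, 3.70 and 0.0403 CPM in ΔPod and 138.8, 361.3 and 0.121 CPM in K2A. The libraries with Adipoq above 1 CPM were the highest for Cfd, and ΔPod 3 and K2A 3 were at the WT level. Its log2 fold changes of 8.29 and 10.83 against WT had SEs of 3.02 and 3.28 and adjusted p of 0.309 and 0.236 in edgeR. Leaving out the libraries with the fat marker kept K2A 3, a long-class library, as the only K2A library. In that edgeR fit Cfb was -0.78 in ΔPod and -0.9997 in K2A against WT, C3 was 0.34 and 1.53, and C1s1 was 0.61 and -0.47. Cfp, properdin, which stabilises the convertase, was 0.544 to 1.63 CPM in WT, 1.23 to 2.74 CPM in ΔPod and 1.02 to 3.44 CPM in K2A.

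**Figure D4:**
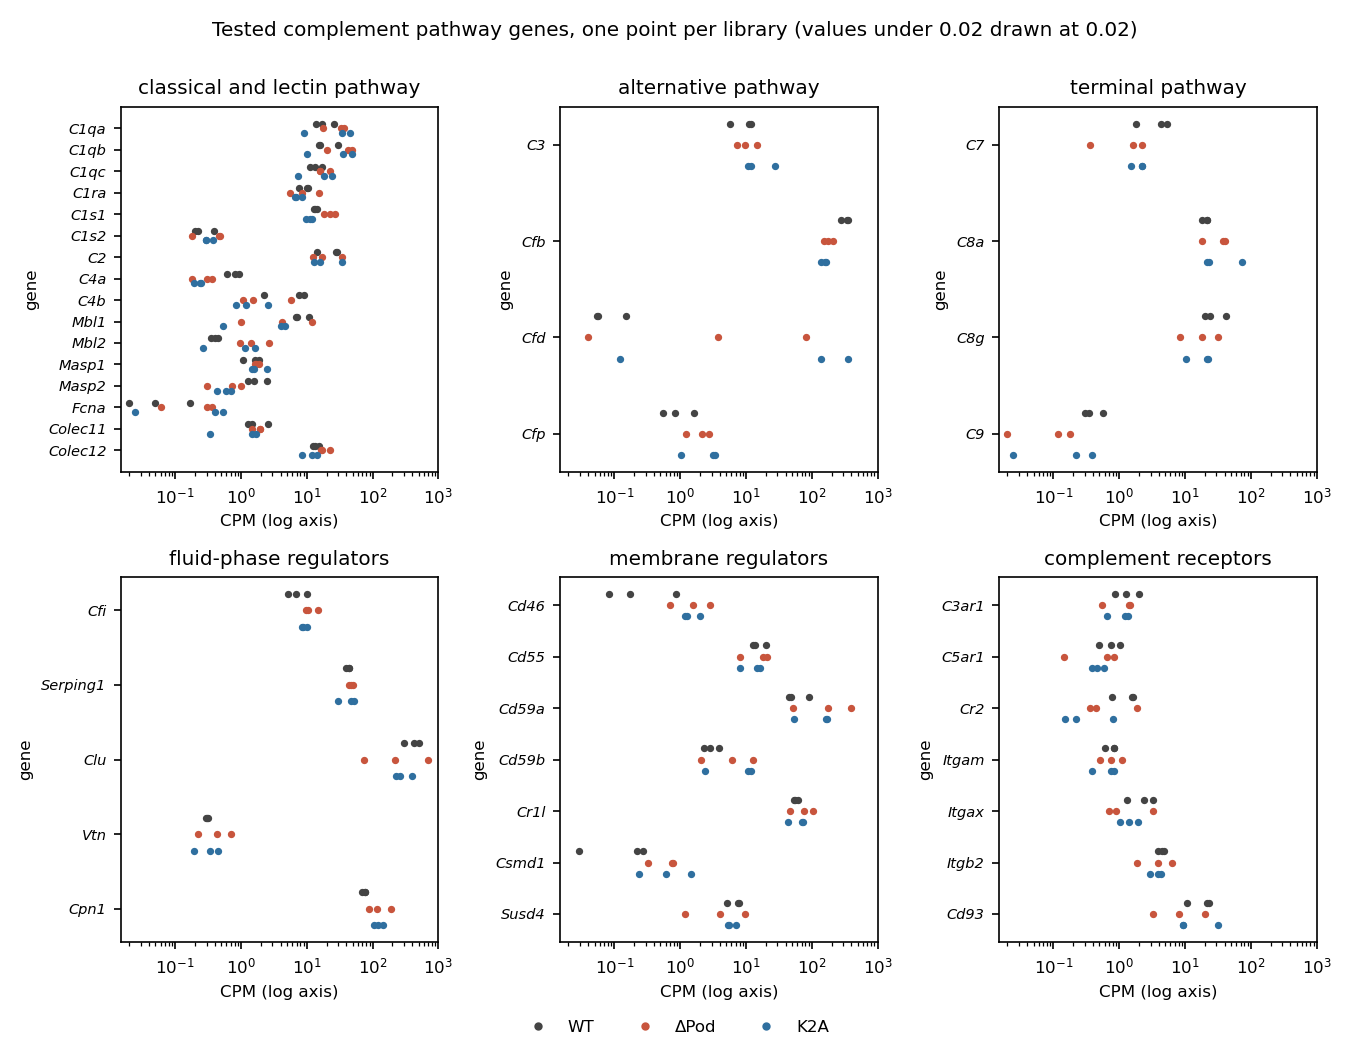
Level of tested complement genes in CPM on a log axis, in 6 groups by role, with 1 point per library coloured by genotype and values under 0.02 drawn at 0.02. Cfb lies between 138.4 and 360.5 CPM, and Cfd spans 0.0403 to 361.3 CPM.

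The genes whose profiles over the 9 libraries were closest to each member were ranked by the root mean square difference of centred log2 CPM. C1qa and C1qb were closest to each other (0.13), then to Fcer1g, which encodes the Fc receptor gamma chain (0.14 for both). The closest to C1qc were Spi1 (0.14) and Pdlim4 (0.16), while C1qa ranked 95 (0.30) and C1qb 439 (0.36). C1s1 was closest to Itga8 and Pla2r1 (0.17 for both), and C3 to Mtcl1 (0.17) and Ednrb (0.18). C4b was closest to Abcc9 and Kl (0.27 for both), Cfb to Ndrg1 and Lbr (0.14 for both) and Cfi to Txnip (0.18) and Zfp383 (0.20). For C1qc, C1s1, C3, C4b, Cfb and Cfi none of the other members was among the 2 closest genes. The distances describe these 9 libraries and include their class.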

How the data were processed

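Polyadenylated RNA of 9 kidney libraries was purified from 500 ng of total RNA and made into libraries with the ScriptSeq v2 kit, per the labels' protocols. The authors deposited whole-number counts per gene symbol in 2 tables, each holding WT and 1 mutant group; per the submitters' processing notes mm10, STAR 2.7.3a, Trim Galore 0.6.3, featureCounts 2.0.1, MultiQC 1.10.1, FastQC 0.11.9 and DESeq2 1.30.0 were used, with roles, strand setting and treatment of overlapping or multiply matching reads not given in the sources used here. The tables held 52182 and 52169 symbols. Of 52163 shared symbols, 3 had unequal WT counts and were left out.

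From the counts, edgeR 4.0.16 (R 4.3.3) fitted all 9 libraries with a genotype term after filterByExpr and TMM scaling, and p-values were adjusted over 18067 genes (threshold 0.05). Level is CPM after TMM scaling, per kilobase of merged GENCODE vM21 exons where stated. Alternatives were DESeq2 1.42.0, limma 3.58.1 (voom with sample weights), other scalings and filters, the length class as a term or covariate, single classes, a replicate block and each library left out. The test was also run on simulated counts with 200 changed genes. Those counts held no length class, so that run cannot show how the test behaves on these libraries. Named genes were the 9 members, pathway genes called in any comparison, 11 fixed pathway genes, of which 1 is not reported here, and the 2 closest genes to each member; Masp2, C1s2 and the macrophage genes with values, and the genes overlapping a member, were chosen after their values were seen. Members and lists were chosen with earlier results of these data known. Libraries with Adipoq above 1 CPM were left out as an alternative chosen after seeing the data. Replicate libraries differed by more than sampling noise in every pair. Counts and floors cover counting error only.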

Additional observations from a re-analysis of the deposited data

Results flagged for a closer look

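C1s1 stood apart because its ΔPod libraries (18.5 to 27.1 CPM) were all above and its K2A libraries (9.63 to 11.8 CPM) all below the WT libraries (12.8 to 14.3 CPM). The difference between the genotypes was tested directly as K2A against ΔPod and gave -1.07 on the log2 scale in edgeR (SE 0.25, unadjusted p = 0.0025, adjusted p = 1). In DESeq2 it was -1.14 (adjusted p = 0.0043) and with the length slope as a covariate -1.06 (adjusted p = 0.047). With the length class as a term, 0 members passed in this comparison. C1s1 was picked for its order in the same libraries, so these tests are no separate support for that order. Of all 18067 tested genes, 19 had the genotypes on opposite sides of WT.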

How the results depend on the processing

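Of 576 alternative values for single members, 506 kept their direction and their side of the threshold, and 33 changed sign. In all 41 passed the threshold where the value in the report did not, 37 with the same sign and 4 with the opposite one. Directions of Cfb, C1s1 and Cfi held in every comparison and alternative run, where Cfb ranged from -1.03 to -0.68 (ΔPod against WT) and -1.24 to -0.93 (K2A against WT). C4b kept its sign against WT in all of them.

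Members called in ΔPod against WT, K2A against WT and K2A against ΔPod numbered 2, 3 and 1 with the length slope as covariate (14.1%, 15.8% and 0.177% of all genes), 2, 7 and 6 in the long-class libraries alone (22.8%, 31.0% and 9.2%, with 1 residual degree of freedom), 2, 1 and 1 in DESeq2, 6, 6 and 1 in limma-voom with sample weights (78.9%, 78.9% and 28.0%), and 0, 3 and 0 with the class term. Pathway genes called were 10, 12 and 2 with the slope, 16, 24 and 16 in the long class, 6, 4 and 1 in DESeq2, 32, 29 and 10 in limma-voom, and 4 in K2A against WT with the class term. With 1 library left out, members called stayed at 0 in all comparisons, and pathway genes called ranged from 0 to 1 in ΔPod against WT (1 without ΔPod 3). Of 18476 to 18718 tested genes, those fits called 23 to 411 in ΔPod against WT, the most without ΔPod 3. They called 3 to 291 in K2A against WT and 0 to 2 in K2A against ΔPod. With so few genes called, a count of 0 members says little about stability. All genes called in ΔPod against WT were 178 in the main analysis, 998 in DESeq2, 715 with the class term and 54 in the 6 compared libraries alone.

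In K2A against WT, C1qa, C1qb and C1qc were -0.0030, -0.0096 and -0.046 with the slope, -0.75, -0.61 and -0.70 in the long class (adjusted p = 0.010, 0.016 and 0.016 in edgeR, past the threshold in the opposite direction, with 1 K2A library) and -1.05, -0.98 and -0.87 without the libraries with fat markers, and C1qc was -0.049 with the class term. C1qa in K2A against ΔPod was -0.079 with RLE factors, -0.0076 with upper quartile factors, -0.018 with 1 CPM required in 3 libraries, -0.0057 in the 6 compared libraries, -0.15 with the class term, -0.090 with the slope, -0.98 in the long class (adjusted p = 0.012 in edgeR), -1.58 without the fat-marker libraries and -0.079 in DESeq2. C1qc was 0.17 in the short class there. C3 in ΔPod against WT was -0.22 in limma-voom. Leaving out 1 library gave -0.20 to 0.34 for C3 in ΔPod against WT and -0.094 to 0.60 for C1qc in K2A against WT. In K2A against ΔPod it gave -0.45 to 0.43 for C1qa, -0.68 to 0.18 for C1qb, -0.48 to 0.23 for C1qc and -1.50 to 0.23 for C4b. The main edgeR values there were 0.011 (SE 0.57), -0.23 (SE 0.58), -0.11 (SE 0.43) and -0.87 (SE 0.77). The main C1qa value was far smaller than its SE, so small shifts can change its sign. The values without the libraries with fat markers also rest on 1 K2A library, K2A 3. The cause of these changes was not tested. Upper quartile scaling moved the median of all genes to 0.26 and 0.24 against WT.

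The replicate block (the number in the titles as a term) called 0 members and 0 pathway genes in every comparison. It moved C1qa in K2A against ΔPod from 0.011 (SE 0.57 in the main fit) to -0.14. Over all genes it called 270 in ΔPod and 232 in K2A against WT. Same-numbered libraries did not all deviate together, with r across genes of -0.62 for WT 1 with ΔPod 1 and -0.54 for WT 1 with K2A 1. The other same-numbered pairs had r of 0.40 to 0.85. WT 1 is a long-class library, and ΔPod 1 and K2A 1 are short-class libraries. These correlations carry the class and cannot show whether the numbers pair the libraries. With as few as 28 counts in a library (K2A 2) for C4b and at most 1 for Hc, depth limits both.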

Other observations

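The summed level of the acute phase and NF-kB response list was 53.9 to 64.8 CPM in WT, 87.1 to 108.3 CPM in ΔPod and 81.6 to 99.4 CPM in K2A, and 0 of its 11 tested genes passed in edgeR in any comparison. The interferon response list was 141.3 to 183.5 CPM in WT, 189.8 to 321.9 CPM in ΔPod and 154.5 to 318.8 CPM in K2A. By class it was 141.3 to 189.8 CPM in long-class and 183.5 to 321.9 CPM in short-class libraries. In edgeR 1 of its 16 tested genes was higher in each comparison with WT, beside 72 (ΔPod) and 58 (K2A) of all 18067 genes, and 0 in K2A against ΔPod.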
